A study of Bos taurus with 12 samples.

Results

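The 10 genes described here carry sulfur from homocysteine to cysteine and from cysteine to taurine, sulfate, sulfide and glutathione: CBS, CTH, CDO1, CSAD, SUOX, MPST, GCLC, GCLM, GSS and GSR. They were taken by symbol as members of this pathway, with no threshold on their values, and all 10 of 10 were found among the 30336 gene IDs of the count files. Their mRNA was measured by RNA sequencing of liver biopsies taken from Holstein heifer calves at 4 days of age. The control calves (CON, 6 libraries) were born to cows on a basal diet with no added methionine. The other calves (MET, 6 libraries) were born to cows that received the same diet plus ethyl-cellulose rumen-protected methionine over the last 28 days before calving. Each calf was first given colostrum of its own mother, and feeding and care were otherwise alike after birth. The comparison asks whether the methionine given to the dam was followed by other levels of these mRNAs in the newborn liver, and supply before birth and through colostrum cannot be told apart. The biopsies held whole liver tissue, in which fewer cells of a type and less RNA per cell cannot be told apart.

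Each library held 8277789 to 10397604 counted reads. On these totals a floor of 3 reads equalled 0.289 to 0.362 CPM, the counts scaled to a common library total. The levels in CPM given below use totals also scaled by TMM normalization, so the floor is approximate for them. Among the 66 pairs of libraries, 2 pairs were nearly alike, CON 1 with CON 4 and MET 1 with MET 3. Their chi-square, divided by the number of genes, was 1.31 and 1.23, where sampling alone gives 1 and the other 64 pairs gave 23.2 to 122. The labels describe 6 calves per diet, and whether the libraries of a pair came from 1 calf is not known. Each pair was therefore also counted as 1 sample, which left 5 samples per diet, and fold changes are given over the 12 libraries and over the 10 samples. Levels in CPM are over the 10 samples. The hepatocyte markers, 8 genes including ALB, APOB and TTR, summed to 134200 to 181000 CPM in the CON samples and to 110100 to 143700 CPM in the MET samples. The first index sequence of the libraries also differed between the diets, and its effect and that of diet cannot be told apart.

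In transsulfuration, cystathionine beta-synthase (CBS) joins homocysteine, the product of methionine after its methyl group is given away, to serine, and cystathionine gamma-lyase (CTH) cleaves the product to cysteine. Cysteine then has several fates in liver. Cysteine dioxygenase (CDO1) oxidises it to cysteine sulfinate, which cysteine sulfinate decarboxylase (CSAD) turns toward taurine. Sulfite oxidase (SUOX) completes the oxidation of sulfite to sulfate, and mercaptopyruvate sulfurtransferase (MPST) passes sulfur from a transaminated cysteine to acceptors. Glutamate-cysteine ligase, made of a catalytic (GCLC) and a modifier (GCLM) subunit, and glutathione synthetase (GSS) build glutathione, the main thiol antioxidant of the cell, and glutathione reductase (GSR) returns its oxidised form to the reduced one.

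GCLM was the gene of this group that passed the test of diet. It was lower in MET over the 12 libraries, and its log2 fold change was -0.41 ± 0.10 (SE, edgeR quasi-likelihood test, FDR = 0.0719). Over the 10 samples the change was of like size, -0.42, and did not pass (edgeR, FDR = 0.177). Of the genes tested over the 12 libraries 4.41% passed at FDR ≤ 0.10, and 2.32% passed as lower in MET, and the count of 1 of 10 is to be read against these shares. Over the 10 samples 0% of 13242 tested genes passed by edgeR, the lowest FDR being 0.156, and 16.3% had an unadjusted p ≤ 0.05. DESeq2 over the same 10 samples passed 5.71% of the genes to which it gave an adjusted p and passed GCLM alone of the 10 (DESeq2, FDR = 0.0494). In counts simulated for 10 samples with 200 genes changed 2-fold, DESeq2 passed 177 of these and 57 unchanged genes. There edgeR passed 158 and 17, so the DESeq2 call of GCLM is the less strict one. An unadjusted p ≤ 0.05 was met by GCLM and CDO1 in both edgeR fits, 2 of 10 genes where 20.5% of all genes tested over the 12 libraries met it.

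The 5 CON samples had GCLM at 45.3, 54.7, 46.0, 56.8 and 42.8 CPM, the first being CON 1 and 4 together. The 5 MET samples had 34.8, 43.4, 37.1, 33.3 and 35.5 CPM, the first being MET 1 and 3 together. Thus 4 of 5 MET samples lay below every CON sample, and the remaining one, MET 2, lay just above the lowest CON sample, CON 6. The means were 49.1 ± 6.23 CPM in CON and 36.8 ± 3.94 CPM in MET (SD, n = 5). An exact permutation test over the 10 samples gave an unadjusted two-sided p = 0.0159, where the smallest that 5 against 5 can give is 0.00794. It used the same values as the fits and is no separate evidence. GCLM passed in 4 of the 12 fits that left out 1 library. It did not pass without CON 1, 4 or 5 or without MET 1, 3, 4, 5 or 6 (edgeR, FDR 0.102 to 0.133), although its change stayed between -0.47 and -0.36 in all 12 of these fits. With a trend on gene length removed, the change of GCLM, which has the longest exonic sequence of the 10 genes (5260 bases), was -0.31 (edgeR, FDR = 0.181).

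**Figure D1:**
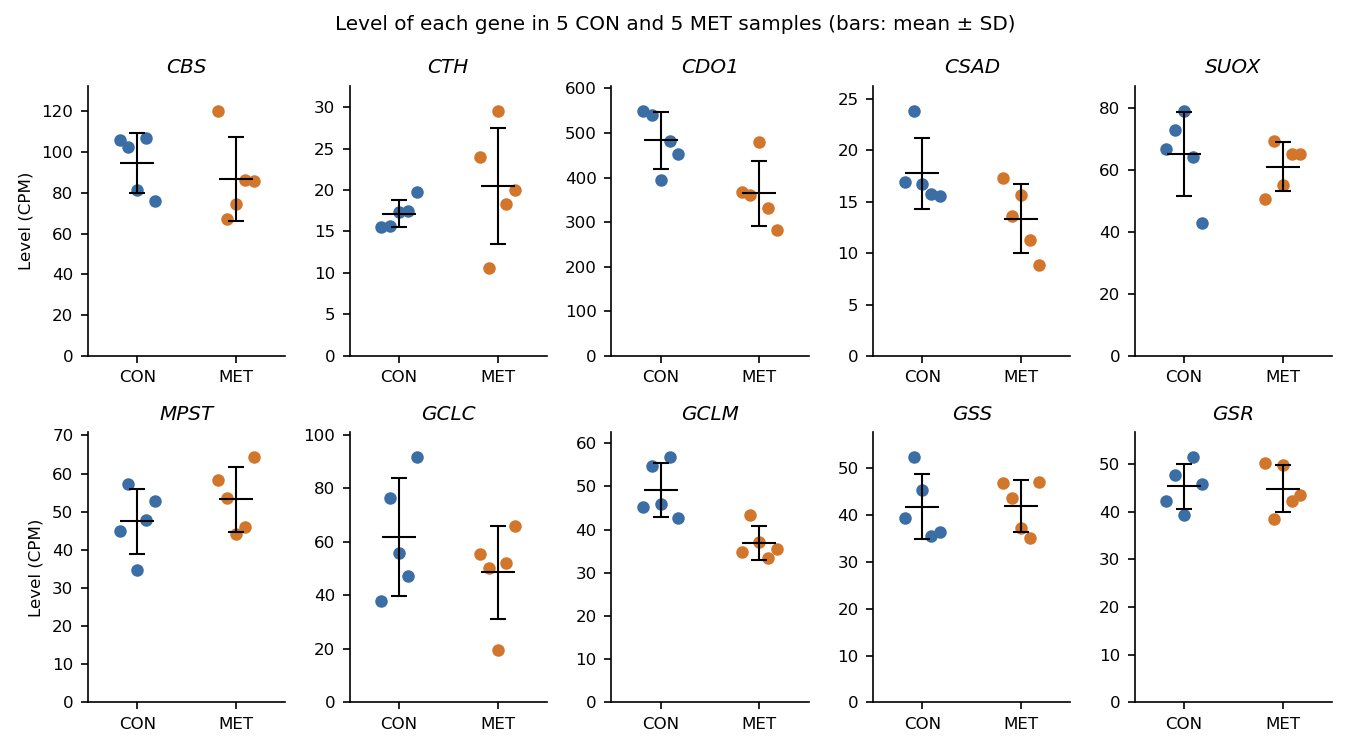
Level in CPM (vertical axes, each from 0) of the 10 genes in the 5 CON and 5 MET samples (points), with the mean and SD (bars). In the GCLM and CDO1 panels 4 of 5 MET points lie below all CON points, whereas for GSS and GSR the points of the diets cover one range.

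GCLC, whose protein carries the catalytic site of the ligase that GCLM modulates, was among the most variable genes of the group. It ranged from 37.9 to 91.6 CPM in CON, with a median of 55.7, and from 19.6 to 65.8 CPM in MET, with a median of 52.1. The lowest of all samples was MET 4 and the highest CON 6, and the other 4 MET samples lay within the CON range. Its coefficient of variation was 35.5% in CON and 35.6% in MET, against 12.7% and 10.7% for GCLM. The log2 fold change was -0.22 with a 95% interval of -0.80 to 0.37 (edgeR, 12 libraries, FDR = 0.694), which spans the change seen for GCLM. It was -0.34 over the 10 samples (edgeR, FDR = 0.606). With 1 library left out it ran from -0.32 to -0.035, lying nearest to 0 without CON 6 (-0.035), MET 4 (-0.051) or CON 2 (-0.12). The ratio of GCLC to GCLM, per exonic length, ran from 1.15 to 2.97 in CON and from 0.731 to 2.57 in MET and overlapped between diets.

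GSS and GSR, the synthetase and the reductase, were at nearly the same level in both diets. GSS averaged 41.9 ± 7.02 CPM in CON and 42.0 ± 5.57 CPM in MET (SD, n = 5), and a log2 fold change of 0.05 (12 libraries, 95% interval -0.21 to 0.30, edgeR, FDR = 0.858) and of 0.006 over the 10 samples. Leaving out 1 library gave GSS from 0.0072 (without MET 3) to 0.13 (without CON 2). GSR averaged 45.3 ± 4.71 CPM in CON and 44.9 ± 5.01 CPM in MET, with 0.03 over the 12 libraries (95% interval -0.19 to 0.25, edgeR, FDR = 0.900) and -0.01 over the 10 samples. Both intervals exclude the value of -0.41 found for GCLM, but the difference between the genes was not itself tested. GSR was the least variable of the 10 genes over the 10 samples, with samples from 38.6 to 51.5 CPM. The sign of both small changes turned in some other fits.

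CDO1, the entry of cysteine into the taurine branch, showed a difference of similar size to GCLM and missed the threshold. The CON samples had 550, 539, 394, 481 and 453 CPM (CON 1 and 4 together, then CON 2, 3, 5 and 6). The MET samples had 369, 361, 479, 331 and 283 CPM (MET 1 and 3 together, then MET 2, 4, 5 and 6). Again 4 of 5 MET samples lay below every CON sample, here with MET 4 as the exception, which reached the level of CON 5. The log2 fold change was -0.44 ± 0.14 over the 12 libraries (edgeR, FDR = 0.108) and -0.41 over the 10 samples (edgeR, FDR = 0.250), with 95% intervals of -0.73 to -0.15 and of -0.76 to -0.06. The exact two-sided permutation test over the 10 samples gave an unadjusted p = 0.0238. For the genes of the group other than GCLM and CDO1 this permutation test gave p from 0.0873 (CSAD) to 0.960 (GSS). CDO1 passed without MET 4 (-0.53, edgeR, FDR = 0.0819) and with the length trend removed (-0.54, edgeR, FDR = 0.0921), in which GCLM did not pass.

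CSAD, the next enzyme toward taurine, was the gene with the fewest reads, 86 to 196 per library. The CON samples had 16.9, 23.9, 16.7, 15.7 and 15.6 CPM, and the MET samples 17.3, 13.6, 15.7, 11.3 and 8.87 CPM, in the same order as for CDO1. CON 2 stood above all others, and 3 of 5 MET samples lay below every CON sample. The log2 fold change was -0.33 (95% interval -0.69 to 0.03, edgeR, 12 libraries, FDR = 0.285) and -0.40 over the 10 samples (FDR = 0.310), which did not pass. The ratio of CSAD to CDO1, per exonic length, was nearly the same in both diets, with medians of 0.0110 in CON and 0.0110 in MET. CDO1 and CSAD also varied together over the 10 samples with a Pearson r of 0.821, the highest among pairs of the 10 genes, followed by CDO1 with GCLM at 0.680. These correlations are descriptions over samples of both diets, which share scaling by library depth.

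Sequences of the qPCR primers that the study designed are shown for CDO1 and CSAD, the taurine branch, since they mark transcripts that can be assayed again by another method. Each is written from 5′ to 3′, with the 5 bases at its 3′ end in capitals, and the qPCR values were not analysed here. Primers were listed for 7 of the 10 genes, among which GCLM was not.
CDO1 forward: atggaagcctatgagAGCAA
CDO1 reverse: ttcagaaagcagtggGAGTC
CSAD forward: gcctcaacaccagcCAGTA
CSAD reverse: gtttcttcagcacctccTGCCT
The forward primers of CDO1 and CSAD have 20 and 19 bases, of which 45.0% and 57.9% are G or C.

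**Figure D2:**
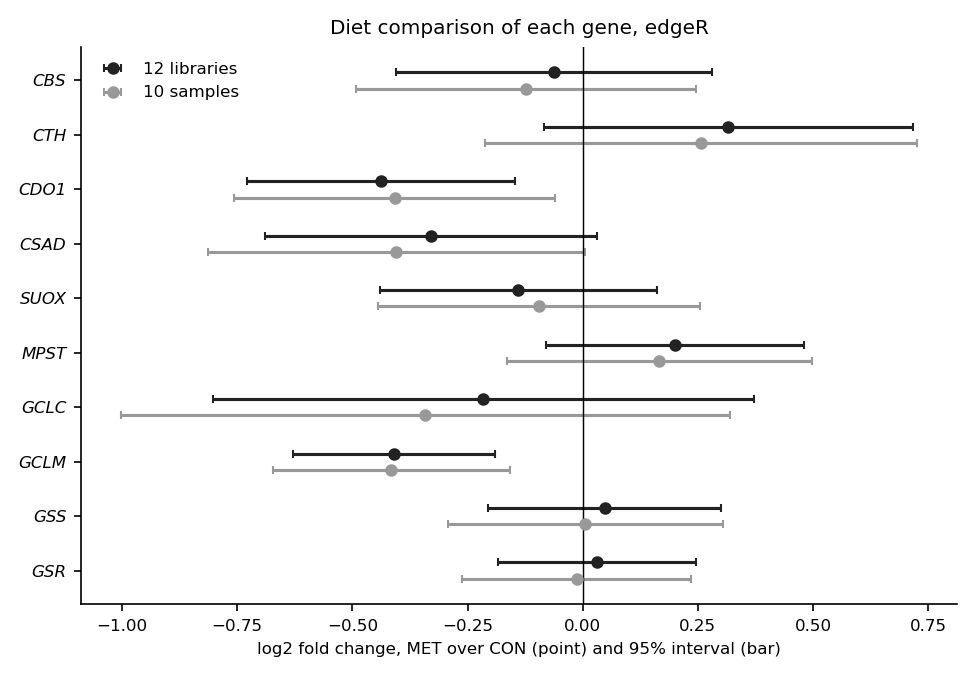
Log2 fold change of MET over CON (horizontal axis) for each of the 10 genes with its 95% interval, over the 12 libraries (black) and over the 10 samples (grey). The intervals of GCLM and CDO1 lie below 0 in both fits, and those of the other 8 genes span 0.

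CBS and CTH, the enzymes that make cysteine, did not pass. CBS had 75.8 to 107 CPM in CON (median 102) and 67.0 to 120 CPM in MET (median 85.8), with a log2 fold change of -0.06 (95% interval -0.40 to 0.28, edgeR, 12 libraries, FDR = 0.865) and of -0.12 over the 10 samples (FDR = 0.754). Leaving out 1 library gave CBS from -0.15 (without MET 1 or MET 3) to 0.015 (without MET 2). The highest sample of all was MET 1 and 3 together, and the MET range enclosed the CON range. CTH had 15.6 to 19.7 CPM in CON (median 17.4) and 10.6 to 29.6 CPM in MET, with 0.32 over the 12 libraries (95% interval -0.08 to 0.72, edgeR, FDR = 0.356) and 0.26 over the 10 samples (FDR = 0.581). Leaving out 1 library gave CTH from 0.20 (without MET 4) to 0.45 (without MET 2), and it passed in none of these fits. For CTH 3 of 5 MET samples lay above every CON sample and 1 lay below all of them. The MET samples were thus spread on both sides of a narrow CON group, with a coefficient of variation of 34.2% against 9.76%, and the difference in spread was not tested. The ratio of CTH to CBS, per exonic length, had medians of 0.247 in CON and 0.323 in MET, in ranges that overlapped.

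SUOX and MPST, the enzymes of sulfite and of sulfur transfer, did not pass either. SUOX averaged 65.2 ± 13.7 CPM in CON and 61.2 ± 7.84 CPM in MET (SD, n = 5), and all 5 MET samples lay within the CON range (log2 fold change -0.14, 95% interval -0.44 to 0.16, edgeR, 12 libraries, FDR = 0.608). SUOX had -0.09 over the 10 samples (edgeR, FDR = 0.808), and from -0.24 (without CON 6) to -0.078 (without CON 3) with 1 library left out. MPST averaged 47.5 ± 8.52 CPM in CON and 53.3 ± 8.48 CPM in MET, with a log2 fold change of 0.20 (12 libraries, 95% interval -0.08 to 0.48, edgeR, FDR = 0.406) and 0.17 over the 10 samples (FDR = 0.618). Leaving out 1 library gave MPST from 0.13 (without CON 3) to 0.26. Only 2 of 5 MET samples lay above every CON sample for MPST. Set against CDO1, per exonic length, MPST had median ratios of 0.0711 (CON) and 0.106 (MET), and 4 of 5 MET samples had a ratio above every CON sample. This ratio falls as CDO1 rises and adds no evidence beyond the values of both genes.

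Over all 10 genes the median log2 fold change was -0.10, with 4 positive and 6 negative, beside -0.003 over all 13212 genes tested. The median size of change regardless of sign was 0.208, beside 0.195 over all genes tested. None of the 10 genes had diets that did not overlap over the 10 samples, where 3.71% of all tested genes did. The summed level of the 10 genes ran from 810 to 1042 CPM in CON and from 719 to 842 CPM in MET, and CDO1 alone made up 48.7 to 57.0% of it in CON and 39.4 to 56.9% in MET.

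Per kilobase of exon (RPKM), the level of CDO1 stood far above the others. It averaged 376 ± 79.7 RPKM over the 10 samples (SD), higher than 98.5% of all tested genes, and its range of 251 to 487 RPKM did not meet that of any other gene of the group. MPST (31.9 RPKM), SUOX (29.0), CBS (26.9), GSR (22.0), GSS (20.2), GCLC (14.5), CTH (8.47), GCLM (8.17) and CSAD (4.42) followed. Each neighbouring pair below CDO1 overlapped in range over the samples. The taurine branch therefore held both ends of the order, with CDO1 at 85.0 times the level of CSAD. CSAD stood above 46.0% of tested genes and GCLM above 61.6%. The order was the same without normalization factors.

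**Figure D3:**
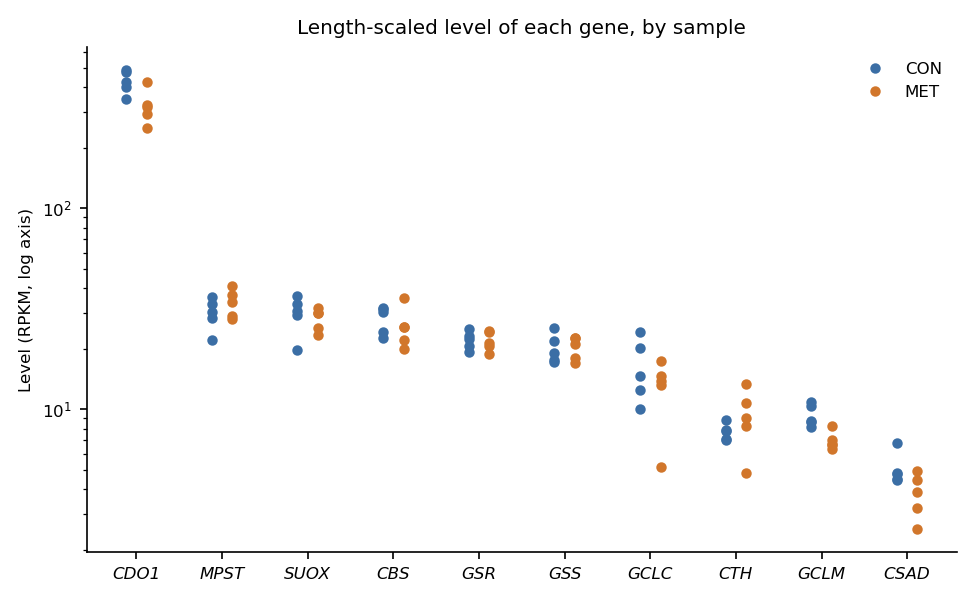
Length-scaled level (RPKM, log axis) of each of the 10 genes in the CON (blue) and MET (orange) samples, from the highest to the lowest mean. CDO1 stands apart at 251 to 487 RPKM, and the ranges of the following genes overlap from one to the next.

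On the assembly UMD 3.1.1 the count files place CDO1 at chr10:4598430-4606919 and GCLM at chr3:49741375-49762680. CBS lies at chr1:144790323-144812882, CTH at chr3:75082358-75109483, GCLC at chr23:6921933-6966560, GSS at chr13:64842129-64867355 and GSR at chr27:25943355-25973543. CSAD at chr5:26984768-27013327, SUOX at chr5:57639565-57643834 and MPST at chr5:75817647-75827383 share chromosome 5. The values cover all annotated exons of each gene, from 4 exon blocks in CDO1, SUOX and MPST to 20 in CSAD. No exon of the 10 genes overlapped another gene on the same strand. MPST overlaps TST, another sulfurtransferase gene, by 148 bases, on opposite strands with their 5′ ends facing each other, and the counting used strand.

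For each gene the one whose log2 CPM followed it most closely over the 10 samples was sought among all tested genes. For CSAD that was ZNF740, a zinc finger gene (Pearson r = 0.944), which is also the gene nearest to CSAD. They lie on opposite strands with their 5′ ends facing each other, 0.25 kilobases apart. The correlation was 0.931 without CON 2, 0.846 within the 5 CON samples and 0.940 within the 5 MET samples. ZNF740 ran from 6.46 to 8.30 CPM in CON and from 4.85 to 7.27 CPM in MET, and it did not pass (log2 fold change -0.26, edgeR, FDR = 0.327). MPST and its neighbour TST had an r of 0.862, higher than 99.8% of the tested genes gave with MPST. GSS and the gene next to it, ACSS2, 608 bases away with their 3′ ends facing each other, had 0.584 (higher than 96.3% of the tested genes gave with GSS), and SUOX and IKZF4, 621 bases apart on the same strand, had 0.000711. The nearest genes farther off, at 7512 bases or more, gave 0.614 for CDO1 with ATG12, 0.421 for GSR with GTF2E2, -0.0994 for GCLM with DNTTIP2 and -0.623 for CBS with PKNOX1. The genes nearest to CTH and GCLC did not pass the filter on low counts. The neighbours were looked at after the values were seen. The closest genes in pattern to the others were CYP3A74 for CBS (0.919), NBAS for CTH (0.896), TMEM128 for CDO1 (0.926), BCL6B for GCLC (0.951), CLYBL for GCLM (0.939), C1H3orf33 for GSS (0.926), COMMD9 for GSR (0.865), LOC100138908 for SUOX (0.936) and DYNLRB1 for MPST (0.956). Each is the highest value over all tested genes, and so is high by its choice.

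**Figure D4:**
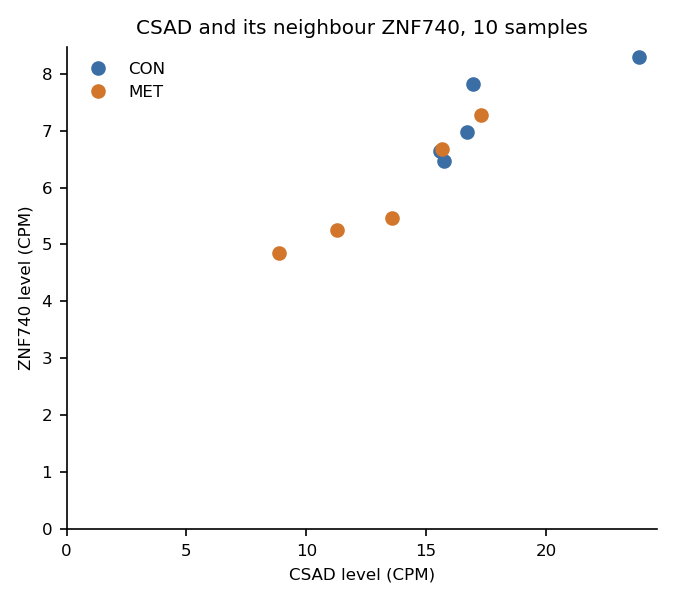
CSAD (horizontal axis) against its neighbour ZNF740 (vertical axis), both in CPM, in the 5 CON (blue) and 5 MET (orange) samples. The points lie along one rising line in both diets (r = 0.846 in CON and 0.940 in MET), with CON 2 at the upper end.

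Around the 10 genes, 91 further genes of sulfur, taurine and glutathione metabolism were listed in 11 lists, of which 89 were matched and 79 passed the filter on low counts. Of these 79 genes 2 passed at FDR ≤ 0.10 over the 12 libraries, both higher in MET, which is 2.53% beside 4.41% of all genes tested. Over the 10 samples none passed by edgeR, and 9 (11.4%) had an unadjusted p ≤ 0.05, beside 0% and 16.3% of all genes tested. Their median log2 fold change was -0.01.

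Both genes that passed handle products of cysteine. SQOR, the mitochondrial enzyme that oxidises sulfide, averaged 77.8 ± 8.43 CPM in CON and 114 ± 22.1 CPM in MET (SD, n = 5; log2 fold change 0.52 ± 0.12, edgeR, FDR = 0.0684). All 5 MET samples, from 94.5 to 149 CPM, lay above the CON samples, from 68.8 to 89.5 CPM. Diets did not overlap over the 10 samples for 3.71% of all tested genes either. GOT1, a cytosolic transaminase that also acts on cysteine sulfinate and cysteine, averaged 68.0 ± 21.2 CPM in CON and 123 ± 25.8 CPM in MET (0.99 ± 0.23, edgeR, FDR = 0.0674), in ranges that overlapped. Over the 10 samples the changes were 0.56 and 0.86 (edgeR, both FDR = 0.175).

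In the other lists no gene passed, and the gene with the lowest p is given for each, with its log2 fold change and FDR over the 12 libraries. The values of these genes over the 10 samples follow at the end. The 5 tested genes of the taurine and hypotaurine list all had negative values (median -0.25), led by FMO1, a flavin monooxygenase that oxidises hypotaurine (-0.52, edgeR, FDR = 0.154). The list of 10 regulators of the NRF2 response, which drives GCLM, GCLC and other antioxidant genes, holds both activators and repressors of it. Of these 10 genes 8 were negative (median -0.14). The repressors BACH1 (-0.33) and CUL3 (-0.14) were negative, and the repressors KEAP1 (0.06) and RBX1 (0.15) were positive. Because the roles differ, this count and median give no direction of the response, which was not tested. NFE2L2, which encodes NRF2 itself, averaged 104 ± 11.5 CPM in CON and 86.5 ± 4.47 CPM in MET (-0.33, edgeR, FDR = 0.101). Its diets did not overlap over the 10 samples, as was so for 3.71% of all tested genes. The 19 tested NRF2 targets outside the 10 genes had a median of -0.01, with 9 positive and 10 negative. IDH1, an NADPH-making dehydrogenase, had the lowest p among them and in the list of NADPH supply (-0.58, edgeR, FDR = 0.123).

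Of 9 tested genes of glutathione breakdown, 7 were positive (median 0.21), and GGT5, a gamma-glutamyl transferase, had 0.53 (edgeR, FDR = 0.131). In cysteine and cystine transport SLC3A2, the heavy chain of several amino acid carriers, had 0.35 (edgeR, FDR = 0.113). SLC7A11, the cystine carrier, did not exceed 0.126 CPM in every sample, under the floor of 3 reads. In glutathione export and mitochondrial import SLC25A40 had -0.43 (edgeR, FDR = 0.290). In molybdenum cofactor synthesis, which serves sulfite oxidase, MOCS2 had 0.52 (edgeR, FDR = 0.208). In the supply of pyridoxal phosphate, the cofactor of CBS, CTH and CSAD, PDXK, the pyridoxal kinase, had 0.48 (edgeR, FDR = 0.293). These genes kept their signs over the 10 samples and none passed: FMO1 had -0.47, NFE2L2 -0.27, IDH1 -0.55, GGT5 0.63, SLC3A2 0.33, SLC25A40 -0.49, MOCS2 0.55 and PDXK 0.43 (edgeR, FDR 0.192 to 0.434).

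**Figure D5:**
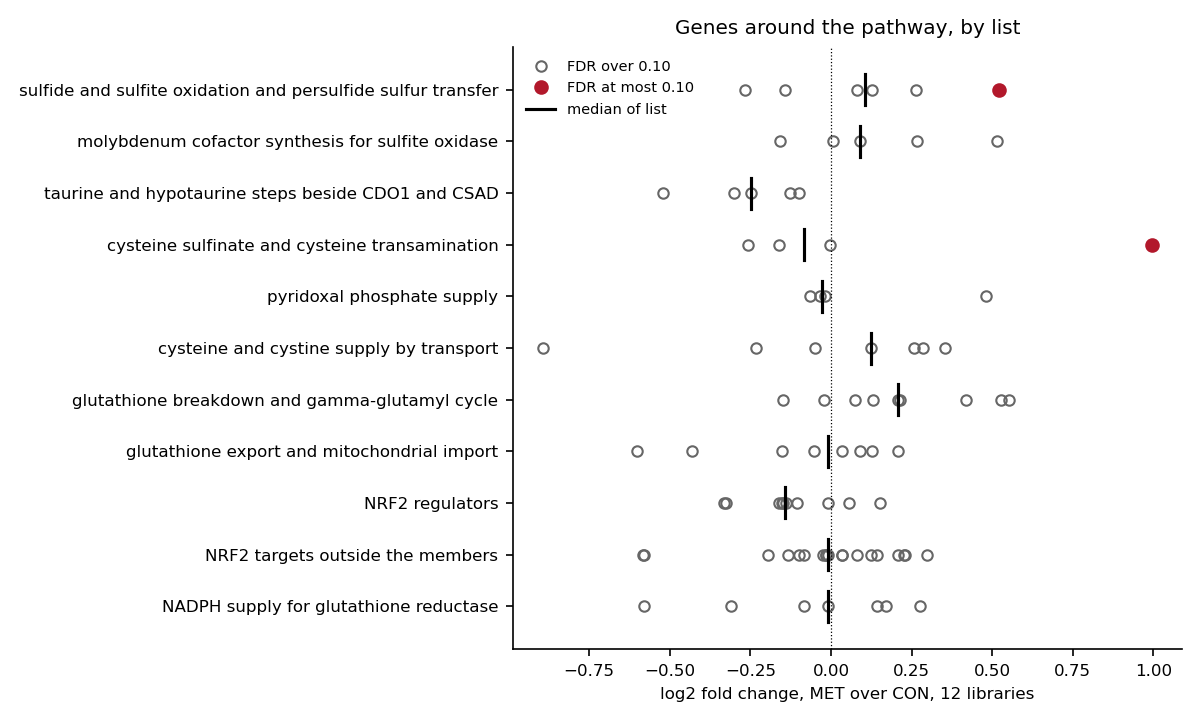
Log2 fold change of MET over CON over the 12 libraries (horizontal axis) for the tested genes of the 11 lists around the pathway (rows), with filled points at FDR ≤ 0.10 and the median of each list as a bar. SQOR at 0.52 and GOT1 at 0.99 are the filled points, and the taurine and hypotaurine list lies wholly below 0.

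Markers of cell types and states were read in the same way, and the values are over the 12 libraries unless stated. Of all 13212 genes tested over the 12 libraries 4.41% passed, and 6558 were positive and 6654 negative. The counts per list are to be read against these. Those of macrophages, stellate cells and mitosis had 1 sign throughout, and the other lists with more than 1 tested gene had both signs. All 8 macrophage markers were positive, with C1QB past the threshold (0.39, edgeR, FDR = 0.0855) and a summed level of 1135 to 1584 CPM in CON and 1335 to 1793 CPM in MET. All 8 stellate and fibroblast markers were negative, with LUM past the threshold (-0.70, FDR = 0.0985) and sums of 620 to 911 CPM in CON and 457 to 755 CPM in MET. All 6 mitosis markers were negative, with CCNB1 (-1.85, FDR = 0.0719) and CDK1 (-1.66, FDR = 0.0766) past the threshold. Of 8 hepatocyte markers 6 were negative and APOB passed (-0.38, FDR = 0.0859). CFTR, of the 5 tested cholangiocyte markers, passed as lower (-0.56, FDR = 0.0889), with 1 positive and 4 negative in its list. Of 7 periportal genes 3 were positive and 4 negative, and PCK1 passed (-0.99, FDR = 0.0570). The periportal median was -0.22 over the 12 libraries and -0.07 over the 10 samples. Among 6 endothelial, 8 pericentral and the 1 tested erythroid gene none passed, those with the lowest p being KDR (-0.26, FDR = 0.233), OAT (-0.41, FDR = 0.216) and ALAS2 (0.16, FDR = 0.940). The endothelial genes were 2 positive and 4 negative and the pericentral ones 1 positive and 7 negative. None of the markers passed by edgeR over the 10 samples, and ALAS2 turned to -0.43. The others had 0.36 for C1QB, -0.69 for LUM, -2.11 for CCNB1, -1.89 for CDK1, -0.41 for APOB, -0.54 for CFTR, -0.88 for PCK1, -0.35 for KDR and -0.49 for OAT. No marker list was at 0 in all samples, and the summed level of every list overlapped between diets. Their part in the lower GCLM and CDO1 levels was not tested.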

How the data were processed

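The authors sequenced 12 stranded mRNA libraries from 1 end on 1 lane, mapped the reads with STAR 2.5.3a (assembly UMD 3.1.1) and counted them per gene with featureCounts of Subread 1.5.2. They deposited raw counts per Entrez gene ID, which were used as they stand, and symbols came from a RefSeq table of a later assembly. Low genes were removed with filterByExpr (minimum count 10, minimum total 15), and counts were scaled by TMM and tested with the quasi-likelihood test of edgeR 4.0.16 in R 4.3.3, with diet alone in the model and Benjamini-Hochberg FDR ≤ 0.10 over all 13212 genes. A positive log2 fold change means higher in MET. The reads of near-identical libraries were summed for the 10 samples. CPM and RPKM were computed from TMM-scaled totals, and log2 CPM had a prior count of 2. DESeq2 1.42.0 and limma 3.58.1 served as alternatives. Intervals are 95% intervals of the fitted fold change, and the floor of 3 reads covers counting error only. The scripts were tested on simulated data. The 10 genes, the lists and the rule for named genes (all 10, and of each list those past the threshold or else the one with the lowest p) were chosen with earlier results of these data known. Same replicate numbers did not deviate together, so numbers were not paired. Promoter sequences were not analysed here.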

Additional observations from a re-analysis of the deposited data

Results flagged for a closer look

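The level of CSAD in CON 2, 23.9 CPM, stood apart from the other 4 CON samples, which had 15.6 to 16.9 CPM, since its gap to the nearest was 0.833 of the whole range, over Dixon's critical value for 5 samples. It was the only such value among 20 groups of samples (10 genes in 2 diets), of which chance alone would flag about 1 in 20. The log2 fold change of CSAD was -0.22 without CON 2, and with each library left out in turn it lay between -0.42 and -0.22 and did not pass.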

How the results depend on the processing

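The calls depended on how near-identical libraries and scaling were handled. Of 583 genes past FDR 0.10 (276 higher and 307 lower in MET), 0 were left by edgeR with pairs summed and 0 with the second library of each pair left out, where 2165 and 2123 genes had an unadjusted p ≤ 0.05 and DESeq2 over the 10 samples passed 639. The count was 107 with library totals only (71 higher, 36 lower), 1314 with DESeq2 over 12 libraries, 238 without a filter, 245 with the length trend removed and 26 to 565 with 1 library left out (26 without CON 1, 35 without CON 4, and within 1.5 times of 583 only without CON 2 or CON 5, at 565 and 459). Of the 10 genes, 0 passed with pairs summed, second libraries left out, library totals only or no filter, 2 with upper quartile scaling and with DESeq2 over 12 libraries, and 0 to 1 with 1 library left out.

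GCLM lost its call with pairs summed (-0.42), second libraries left out (-0.43), library totals only (-0.37), no filter (-0.40) and the length trend removed (-0.31), and ran from -0.47 to -0.36 with 1 library left out. CDO1 gained one with upper quartile scaling (-0.46), DESeq2 over 12 libraries (-0.44) and the length trend removed (-0.54), and ran from -0.53 to -0.38 with 1 library left out. The sign turned for CBS (-0.15 to 0.015 with 1 library left out), for GSS with second libraries left out (-0.012) and for GSR with pairs summed (-0.013), DESeq2 over 10 samples (-0.0097) and 1 library left out (-0.0047 to 0.075). The difference of mean log2 CPM of GSR also turned over the 12 libraries (0.029).

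With the replicate number as a replicate block 6 genes and 0 of the 10 passed, and GCLM had -0.41. Correlations of same-numbered libraries ran from -0.190 to 0.148, so that they share only a number. CTH, CSAD, GCLC, SUOX and MPST kept their direction and their side of the threshold in all 24 alternatives. The cause of these shifts was not tested.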
